A study of Mus musculus with 4 samples.

Results

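The endothelial cells of the neonatal mouse sciatic nerve were picked from single-cell transcriptomes by their own marker genes. A cell barcode was taken as endothelial when at least 200 genes were detected, when at most 10% of its unique molecular identifiers (UMIs, each marking 1 captured mRNA molecule) came from mitochondrial genes, when the UMIs of Pecam1, Cldn5, Cdh5, Egfl7, Esam and Emcn summed to at least 4, and when it held no UMI of Sox10 (Schwann cells), Pdgfra (mesenchymal cells) or Ptprc (immune cells). This rule found 556 cells among the 8042 neonatal barcodes that passed the gene and mitochondrial filters, in a series of 13200 barcodes from 4 libraries. The neonatal FACS library, from nerves at postnatal day 3 to 4 (P3-P4), gave 133 endothelial cells of 2306 barcodes, and the neonatal beads library, from nerves at P2-P3, gave 423 of 5736.

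All 4 libraries were made by Drop-seq, a droplet method that counts UMIs per gene and cell, from sciatic nerves of Wildtype CD1 mice dissociated with collagenase and trypsin. In the FACS library live nucleated cells were sorted by flow cytometry, whereas the neonatal beads, uninjured and 3 DPI libraries were cleared of myelin debris with magnetic myelin removal beads. The uninjured library came from adult nerve, and the 3 DPI library from the distal segment of adult nerve 3 days after resection. Each group was 1 library, so no test was possible, no p-value is given, and differences between libraries are described by their size alone. Age, injury, nerve segment, preparation and library cannot be told apart where they change together. Levels are in CPM (counts per 1000000), the UMIs of a gene summed over the endothelial cells of a library and divided by all their UMIs, with exact Poisson 95% intervals, and shares of cells carry exact Clopper-Pearson 95% intervals. Both intervals cover counting error only.

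Endothelial cells line all blood vessels and lymphatic vessels. In peripheral nerve the capillaries among the axons form the blood-nerve barrier, whose cells are joined by tight junctions and carry transporters for glucose and for the export of foreign compounds, while vessels of the outer sheath are leakier. During growth, vessels extend behind tip cells, which respond to VEGF through Kdr, secrete apelin and Esm1 and lay down new basement membrane, and the new vessels then take on arterial, capillary or venous character.

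The upstream sequences of 5 endothelial genes that the results below turn on are shown first, as context for the genes and not as evidence of regulation. Each is the 250 bases before the gene's start in the RefSeq table (GRCm38.p6), 5′ to 3′ on the gene's own strand, with capitals marking GGAAG or its complement CTTCC, a short form of the core bound by ETS transcription factors. Cldn5, Emcn, Kdr, Flt1 and Apln held 0, 2, 1, 3 and 3 matches. The table gave a promoter for 18 of the 36 rule and other pan-endothelial genes, of which 15 (83.3%) held the motif, against 63.7% of all 27025 promoters, 75% of the 24 cell cycle and 73.7% of the 19 immediate early and stress genes with an entry, and the promoters of Pecam1, Cdh5 and Esam were not in it.
Cldn5 (chr16:18776597-18776846, plus strand): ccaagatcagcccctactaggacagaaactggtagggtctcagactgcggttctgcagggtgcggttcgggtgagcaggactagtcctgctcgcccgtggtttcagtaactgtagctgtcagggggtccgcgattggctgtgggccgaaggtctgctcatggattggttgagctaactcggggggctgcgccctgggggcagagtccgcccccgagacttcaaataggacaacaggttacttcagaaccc
Emcn (chr3:137340828-137341077, plus strand): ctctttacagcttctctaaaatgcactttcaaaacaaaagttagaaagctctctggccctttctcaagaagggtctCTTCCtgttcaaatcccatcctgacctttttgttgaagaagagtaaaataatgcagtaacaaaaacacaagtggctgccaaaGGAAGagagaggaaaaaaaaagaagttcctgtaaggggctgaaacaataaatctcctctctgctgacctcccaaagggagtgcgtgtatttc
Kdr (chr5:75978456-75978705, minus strand): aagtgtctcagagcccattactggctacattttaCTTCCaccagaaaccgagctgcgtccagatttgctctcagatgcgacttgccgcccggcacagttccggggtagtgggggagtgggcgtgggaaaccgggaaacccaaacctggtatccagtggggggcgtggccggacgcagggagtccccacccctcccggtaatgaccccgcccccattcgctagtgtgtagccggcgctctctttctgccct
Flt1 (chr5:147726012-147726261, minus strand): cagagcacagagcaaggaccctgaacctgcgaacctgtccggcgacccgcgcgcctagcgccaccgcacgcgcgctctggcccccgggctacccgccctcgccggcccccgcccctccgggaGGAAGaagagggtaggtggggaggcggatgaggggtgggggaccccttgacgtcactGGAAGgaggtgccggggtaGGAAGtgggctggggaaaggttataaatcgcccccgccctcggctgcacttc
Apln (chrX:48034854-48035103, minus strand): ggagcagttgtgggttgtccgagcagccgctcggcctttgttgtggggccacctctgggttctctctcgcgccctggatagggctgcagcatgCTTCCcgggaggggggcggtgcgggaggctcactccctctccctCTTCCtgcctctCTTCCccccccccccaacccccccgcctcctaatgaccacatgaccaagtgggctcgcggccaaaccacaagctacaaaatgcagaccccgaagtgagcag

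The 6 rule genes were all detected broadly in the chosen cells, which the rule made likely, and their values are given as a description only. The median cell carried 5 of the 6 in every library. Egfl7, which encodes a matrix protein secreted by endothelium, was found in 93.2% of FACS and 93.1% of beads cells, and Pecam1, an adhesion protein of endothelial junctions, in 84.2% and 86.1%. Cldn5, the main claudin of endothelial tight junctions, was found in 71.4% and 61.0%. Marker UMIs had a median of 16 in FACS and 13 in beads cells. Around the threshold, 18 FACS and 51 beads cells had exactly 3 marker UMIs and 8 and 36 cells had exactly 4. The summed level of 30 other pan-endothelial genes, which the rule did not use, was 3275 CPM in FACS and 3812 CPM in beads cells with 3 marker UMIs, 3962 and 6302 CPM at 4, and 458 and 386 CPM in cells with no marker UMI. Markers of pericytes and smooth muscle, the cells that wrap vessels, summed to 10869.9 and 9539 CPM at 3 marker UMIs and to 10517 and 10774 CPM at 4, so cells near the threshold carried mural transcripts as well. A further 9 FACS and 24 beads cells had enough marker UMIs but were left out for a UMI of Sox10, Pdgfra or Ptprc.

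The endothelial cells were compared with the other neonatal barcodes that passed the filters, which describes the chosen cells and is no test. Of 4090 genes with a mean of at least 50 CPM over both groups, 396 (9.68%) were at least 2-fold higher in endothelial cells in both libraries. All 28 of the other pan-endothelial genes compared were among them. Tie1, a receptor of the angiopoietin pathway, stood at 309 CPM (257 to 368) in FACS and 299 CPM (267 to 334) in beads endothelial cells against 3.24 and 8.91 CPM in the other barcodes. Kdr, the main VEGF receptor, stood at 515 and 736 CPM against 6.26 and 21.3 CPM. Ramp2, part of the adrenomedullin receptor, stood at 1171 and 1412 CPM against 113 and 118 CPM. The levels differed by an order of magnitude or more in each case. None of the genes compared from the pericyte (6), Schwann (8), mesenchymal (7), immune (1) and red cell (3) lists was 2-fold higher in endothelial cells in both libraries.

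Outside the rule, the genes with the highest smallest ratio over the other barcodes were Galnt15, Abcb1a, Robo4, Gimap1, Btnl9, Unc45b and Aplnr. Galnt15, a glycosyltransferase, was at 61.3 CPM in FACS and 80.1 CPM in beads endothelial cells against 0.216 and 1.09 CPM elsewhere, and at least 73.1-fold higher in both libraries. Abcb1a, the drug efflux pump of barrier endothelium, was at 218 and 191 CPM against 3.24 and 3.44 CPM. Robo4, a receptor that stabilises vessels, was at 230.3 and 293 CPM against 2.59 and 5.47 CPM. The remaining 8 of the 15 genes named by this ratio were Gimap8, Cd300lg, Rbp7, Ushbp1, Rasgrp3, Car4, Eltd1 and C1qtnf9, whose smaller ratios lay between 41.1 and 46.6. The most abundant gene of the lists was Fabp4, a fatty acid binding protein of capillary endothelium, at 13285 CPM (12934 to 13644) in FACS and 11428 CPM (11224 to 11634) in beads cells.

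**Figure D1:**
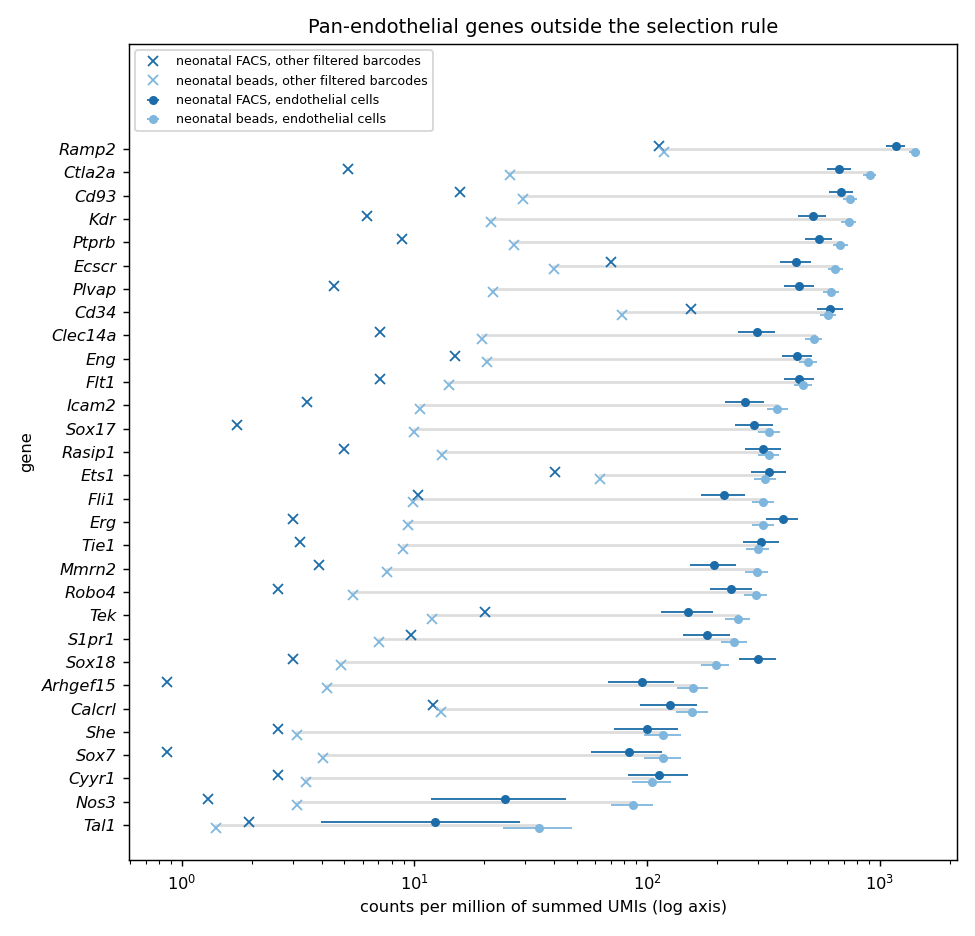
Level of 30 pan-endothelial genes that the selection rule did not use, in neonatal endothelial cells (circles) and in the other filtered barcodes of the same library (crosses), for the FACS (dark) and the beads library (light), in CPM on a log axis with exact Poisson 95% intervals. The genes sit far to the right in endothelial cells of both libraries, with Tie1 at 309 and 299 CPM against 3.24 and 8.91 CPM.

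Endothelial cells made up 5.77% (4.85 to 6.80) of filtered barcodes in the FACS and 7.37% (6.71 to 8.08) in the neonatal beads library, against 20.2% (18.4 to 22.0) in the uninjured and 8.33% (7.23 to 9.54) in the 3 DPI library. Age, injury and preparation cannot be told apart in these shares, which also move with the marker threshold. Median depth per endothelial cell was 2471 UMIs in FACS, 1754 in neonatal beads, 2018 in uninjured and 2859 in 3 DPI cells, and summed depth was 408127, 1049296, 1238829 and 864873 UMIs. A gene with 0 UMIs was set to 3 UMIs, which is 7.35, 2.86, 2.42 and 3.47 CPM in the same order. Whole libraries held 4513814 to 8123103 UMIs. Libraries shared between 0 and 3 barcodes, and no endothelial barcode was shared.

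Several transcripts of other cells were present in the neonatal endothelial cells, at levels that differed by preparation. The 12 Schwann markers summed to 2921 CPM in FACS and 517 CPM in beads endothelial cells, against 34156 and 9403 CPM in the other barcodes. Mbp, a protein of the myelin sheath, was at 1225 CPM in FACS and 91.5 CPM in beads endothelial cells. The 12 mesenchymal markers summed to 4969 and 1629 CPM against 57338 and 30157 CPM elsewhere. Sums of the 6 red cell markers were 7.35 and 1071 CPM, with 1 Hbb-bs UMI in the FACS and 652 in the beads endothelial cells. Immune markers stayed at 24.5 and 9.53 CPM. The Schwann and mesenchymal transcripts were thus higher in FACS cells and the hemoglobin transcripts higher in beads cells, and values of such genes within endothelial cells are not read here as endothelial expression.

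Pericyte and smooth muscle markers summed to 1458 CPM in FACS and 1549.6 CPM in beads endothelial cells, and 39.8% and 40.9% of the cells held at least 1 UMI of the list. Rgs5, a pericyte marker, was found in 5 of 133 FACS cells (3.76%) and in 67 of 423 beads cells (15.8%), and in 4.34% and 3.57% of Schwann cells. Schwann cells here are barcodes with a Sox10 UMI and no UMI of the 6 rule genes, Pdgfra or Ptprc, and mesenchymal cells are defined likewise by Pdgfra. In the Rgs5-positive cells the pericyte gene Kcnj8 reached 849 CPM in FACS and 277 CPM in beads, against 2.76 and 3.84 CPM in the Rgs5-negative endothelial cells. Pdgfrb, the receptor through which pericytes answer endothelial Pdgfb, was at 392 and 78.5 CPM against 8.28 and 1.28 CPM. Pecam1 was at 1241 CPM in Rgs5-positive and 1483 CPM in Rgs5-negative beads cells, so these barcodes held endothelial and mural transcripts together. In the FACS library Pecam1 was at 196 CPM in the 5 Rgs5-positive cells, on 9 UMIs that all came from 1 cell, against 1273 CPM in the others. In the beads library 4 of these 67 cells fell in the upper 5% of scores from the doublet caller scrublet. Gene counts of the comparisons between libraries below were repeated without Rgs5-positive cells. The splits of neonatal cells by 1 marker further below were not repeated in this way. In FACS, 1 of the 5 Rgs5-positive cells carried Gpihbp1 and 3 carried Gja4 or Gja5.

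Both neonatal libraries were then set against both adult libraries to ask which endothelial genes differed in each pairing of libraries. Age changed together with library in every pairing, with preparation in those of FACS, and with injury in those of 3 DPI. Of 4005 genes with a mean of at least 50 CPM, 51 (1.27%) were at least 2-fold higher in each neonatal than in each adult library and 132 (3.3%) were at least 2-fold lower. By list, imprinted growth genes were higher (8 of 12 compared), tip cell genes were higher (3 of 10), and immediate early and stress genes (12 of 22), antigen presentation genes (8 of 15) and venous genes (3 of 10) were lower. A gene low at either age could reach the mean of 50 CPM only through its level at the other age. Counts and medians by list, here and below, are therefore a description only. Comparing only libraries of the same preparation, 246 of 4024 genes (6.11%) were at least 2-fold higher and 353 (8.77%) at least 2-fold lower in neonatal beads than in uninjured adult beads endothelial cells. With size factors from the median of ratios in place of totals these counts were 166 and 442, which moved the share of higher genes among those past 2-fold from 41.1% to 27.3%. The median log2 ratio over all 4024 genes was 0.14, and -0.02 with those size factors.

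Imprinted genes, expressed from a single parental copy and active in fetal and early postnatal growth, were past 2-fold higher in all pairings in 8 of 12 cases. H19, a noncoding RNA that shares its locus with Igf2, was at 1794 CPM (1666 to 1928) in FACS, 1707 CPM (1629 to 1788) in neonatal beads, 5.65 CPM (2.27 to 11.6) in uninjured and 124 CPM (101 to 149.5) in 3 DPI endothelial cells. The ratio of neonatal to uninjured beads cells was 302 (146 to 752), the uninjured level resting on 7 UMIs. Mest was at 1877, 1081, 12.9 and 265 CPM, and Igf2, a growth factor, at 1612, 1406, 379 and 41.6 CPM. All 3 genes were therefore high in both neonatal libraries and lower in both adult libraries, with H19 and Mest lowest in uninjured and Igf2 lowest in 3 DPI cells. Igf2 was found in 78.2% of FACS and 72.1% of beads endothelial cells, against 20% and 9.59% of Schwann cells. It was not particular to endothelial cells, as the study detected Igf2 in larger shares of neonatal mesenchymal than of endothelial cells. Of 12 imprinted genes compared, 1 was at least 2-fold higher in endothelial cells than in the other barcodes in both neonatal libraries.

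The other imprinted genes past 2-fold in all 4 pairings were Dlk1, Peg3, Grb10, Cdkn1c and Plagl1. Dlk1, a membrane protein related to Notch ligands, was at 385, 172, 21.8 and 18.5 CPM in FACS, beads, uninjured and 3 DPI cells. Plagl1, a zinc finger transcription factor, was at 127, 122, 4.84 and 25.4 CPM, and Peg3, also a zinc finger protein, at 194, 137, 14.5 and 24.3 CPM. Cdkn1c, a cell cycle inhibitor, was at 328, 247, 73.5 and 53.2 CPM. Dlk1 and Igf2 were also high in the other neonatal barcodes, at 2101 and 1156 CPM and at 2359 and 1328 CPM, so their share that came from free RNA was not tested. H19 was at 2609.9 and 1988 CPM there. Mest was higher in endothelial cells than in the other barcodes in both libraries (912 and 449 CPM elsewhere). Between neonatal and uninjured beads cells 9 of 11 imprinted genes were past 2-fold higher, with a median log2 ratio of 1.89 against 0.14 over all genes, and 8 of 11 were past 2-fold higher in all pairings without Rgs5-positive cells.

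Tip cell genes were past 2-fold higher in all pairings in 3 of 10 cases. Apln, which encodes the secreted peptide apelin, was at 387 CPM (329 to 452) in FACS, 317 CPM (284 to 353) in beads, 47.6 CPM (36.3 to 61.4) in uninjured and 50.9 CPM (37.0 to 68.3) in 3 DPI cells. Esm1, a secreted proteoglycan of sprouting vessels, was at 127, 163, 62.2 and 49.7 CPM. Nid2, a basement membrane linker, was at 228, 119, 17.8 and 54.3 CPM, though it was also at 359 and 390.2 CPM in the other neonatal barcodes. Without Rgs5-positive cells only 1 of the 10 tip cell genes compared was past 2-fold higher. The receptor for apelin, Aplnr, was at 255, 341, 84.8 and 186 CPM, past 2-fold against uninjured but not against 3 DPI cells. At an equal depth of 500 UMIs per cell, Apln was found in 12.4% (7.26 to 19.4) of FACS, 13.0% (9.86 to 16.7) of beads, 0.769% (0.159 to 2.23) of uninjured and 2.14% (0.586 to 5.39) of 3 DPI endothelial cells, and in 0.503% and 0.195% of neonatal Schwann cells.

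Between neonatal and uninjured beads cells the tip cell list had 6 of 10 genes past 2-fold higher (Apln, Esm1, Mcam, Nid2, Col4a1 and Lxn) and none past 2-fold lower, with a median log2 ratio of 1.59. Apln and Nid2 reached the mean of 50 CPM only through their neonatal level, so the filter helped to set this count. The basement membrane list had 9 of 15 past 2-fold higher and 1 lower, with a median of 1.02. It summed to 18379 and 17236 CPM in FACS and neonatal beads endothelial cells, against 21029 and 22097 CPM in the other barcodes. Only 2 of 14 of its genes compared were at least 2-fold higher in endothelial cells than in the other barcodes in both libraries. The share that came from free RNA was not tested. Without Rgs5-positive cells the tip cell list had 5 of 10 higher and 1 lower, and the basement membrane list 7 of 15 higher and 1 lower. Col4a1 and Col4a2, the chains of the main vascular collagen IV, were at 2085 and 1463 CPM in FACS, 2103 and 1672 CPM in neonatal beads, 389 and 277 CPM in uninjured, and 1320.4 and 950.4 CPM in 3 DPI cells. The neonatal levels of both collagens lay above the uninjured level by 5.41-fold (4.90 to 5.98) and 6.04-fold (5.37 to 6.80) in beads cells, while the 3 DPI levels came within 2-fold. Lama5, a laminin chain of mature endothelial basement membrane, ran the other way, at 19.6, 41.9, 91.2 and 96.0 CPM. Unc5b, a netrin receptor of tip and arterial cells, was at 80.9, 53.4, 4.04 and 6.94 CPM, with 5 and 6 UMIs in the adult libraries and a mean under 50 CPM, which kept it out of the counts.

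The VEGF receptors differed in opposite directions between neonatal and uninjured beads cells. Kdr, the receptor that drives sprouting, was at 736 CPM (685 to 789.5) in neonatal and 348 CPM (316 to 382) in uninjured beads cells, a ratio of 2.11 (1.88 to 2.38). Flt1, which binds VEGF with little signalling and is known as a decoy, was at 469 CPM (428 to 512) in neonatal and 1271 CPM (1209 to 1336) in uninjured beads cells, 2.71-fold (2.45 to 3.01) higher in the uninjured cells. In FACS cells Kdr was at 515 CPM and Flt1 at 451 CPM, and in 3 DPI cells they were at 479.8 and 807 CPM. Flt1 was thus lower in both neonatal than in both adult libraries, whereas Kdr in FACS cells lay within 2-fold of both adult levels. Without Rgs5-positive cells, none of the 6 receptors compared was past 2-fold higher. In the Notch pathway 1 of 8 genes was past 2-fold in this comparison, the target Hes1 at 113 CPM in neonatal and 408 CPM in uninjured beads cells, and Dll4, the ligand of tip and arterial cells, was at 86.7 and 93.6 CPM. Of the BMP and TGF-beta list 1 of 10 was past 2-fold higher, the target Id2, and none lower. Over all 4024 genes compared, 6.11% were past 2-fold higher and 8.77% lower. The 1 gene past 2-fold in each list is therefore not read as a difference of either pathway.

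Capillary genes split. Gpihbp1, which carries lipoprotein lipase across capillary endothelium, was at 1017 CPM (921 to 1119.5) in FACS, 1045 CPM (985 to 1109) in neonatal beads, 305 CPM (275 to 337) in uninjured and 268 CPM (235 to 305) in 3 DPI cells. Rgcc, a regulator of the cell cycle found in capillary cells, was at 654, 620.4, 202 and 194 CPM. These were the 2 of 14 capillary and lipid handling genes past 2-fold higher in all pairings, and none was past 2-fold lower. Fabp4 and the fatty acid transporter Cd36 differed by less than 2-fold between any neonatal and adult library, with Cd36 at 2377, 2065, 1673 and 1466 CPM. Car4, a carbonic anhydrase of capillaries, was at 129.9, 106, 391 and 38.2 CPM, between the adult levels. The lipoprotein carrier and Rgcc were thus more than 2-fold above their adult level while the fatty acid handling genes were not.

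Of the venous genes, 3 of 10 compared were past 2-fold lower in all pairings, and 2 of 10 without Rgs5-positive cells. Selp (P-selectin), which tethers leukocytes, was at 9.80 CPM (4 UMIs) in FACS, 49.6 CPM in neonatal beads, 341 CPM in uninjured and 435 CPM in 3 DPI cells. Darc (Ackr1), a chemokine receptor of venules, was at 56.4, 180.1, 448 and 399 CPM, and Lrg1, a secreted glycoprotein of activated venules, at 12.3, 21.0, 773 and 1520.5 CPM. Selp, Darc and Lrg1 were the genes past 2-fold lower, and none was past 2-fold higher in all pairings, though Aplnr, also on the venous list, lay above both adult levels as given above. Sele (E-selectin) had 0 UMIs in FACS and 9 in neonatal beads cells, against 237 CPM (210.2 to 265) in uninjured and 96.0 CPM (76.4 to 119) in 3 DPI cells, and was 11.2-fold or more below both adult levels in each neonatal library. Vwf, a clotting protein stored in venous and large-vessel endothelium, was at 71.1 CPM in FACS, 287 CPM in neonatal beads, 471 CPM in uninjured and 491 CPM in 3 DPI cells and so differed more between the neonatal preparations than between neonatal and uninjured beads cells. Plvap, which forms the diaphragms of leaky capillaries and venules, was at 451, 618, 1392 and 1656 CPM. It was the only 1 of 29 other pan-endothelial genes past 2-fold in all pairings, where 3.3% of all genes compared were past 2-fold lower.

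Barrier genes were low in both neonatal libraries and in the 3 DPI library and high in the uninjured library. Abcb1a was at 218 CPM (175 to 268) in FACS, 191 CPM (165 to 219) in neonatal beads, 1139.8 CPM (1081 to 1201) in uninjured and 200.03 CPM (171 to 232) in 3 DPI cells. Slc2a1, the glucose transporter of barrier endothelium, was at 110.3, 67.7, 443 and 91.3 CPM, and Slco1a4, an organic anion transporter, at 24.5, 41.9, 563 and 12.7 CPM. The uninjured library stood apart in each case. Mfsd2a, a lipid transporter that limits transcytosis, had 4 and 8 UMIs in the neonatal libraries, at 9.80 and 7.62 CPM, against 209.9 CPM (185 to 237) in uninjured and 12.7 CPM in 3 DPI cells, and Spock2 was at 61.3, 69.6, 557 and 32.4 CPM. Between neonatal and uninjured beads cells 9 of 11 barrier genes were past 2-fold lower and none higher, with a median log2 ratio of -1.90, and without Rgs5-positive cells 10 of 12 were. None of 9 was past 2-fold in all 4 pairings, and the 3 DPI levels of the genes given above were low too. Tjp1, a scaffold of tight junctions, was within 2-fold at 195 and 302 CPM.

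Genes of antigen presentation and the interferon response were lower in neonatal cells, with 8 of 15 past 2-fold in all pairings and none higher. B2m, the light chain of class I molecules, was at 1431 and 1480.0 CPM in FACS and neonatal beads cells against 3195 and 3417 CPM in uninjured and 3 DPI cells. H2-K1 was at 488, 497, 1598 and 1603 CPM, with reads of near-identical class I genes that could be divided among them. Ly6a, an interferon-inducible surface protein of adult endothelium, was at 213 CPM (171 to 263), 149.6 CPM (127 to 175), 1468 CPM (1401 to 1537) and 1249 CPM (1175 to 1325). Neonatal levels of all 3 lay below both adult levels. Without Rgs5-positive cells 7 of 15 were past 2-fold lower.

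Among 21 ligands compared, Apln, Igf2 and Esm1 were past 2-fold higher and Edn1, Csf1 and Cxcl1 past 2-fold lower in all pairings, and without Rgs5-positive cells 2 were higher and 2 lower. Edn1, the vasoconstrictor endothelin, was at 223 CPM (179.5 to 274) in FACS, 225 CPM (197 to 256) in neonatal beads, 1141 CPM (1082 to 1202) in uninjured and 721 CPM (666 to 780.4) in 3 DPI cells. Pdgfb, which recruits pericytes, was at 93.1, 156, 164 and 86.7 CPM, and Kitl, the ligand of the Kit receptor, at 549, 481, 532 and 416 CPM. The latter 2 ligands were within 2-fold in every pairing. Ptn, which is also made by Schwann cells and fibroblasts, was at 247 and 131 CPM in the neonatal libraries, 1278 CPM in uninjured and 67.1 CPM in 3 DPI cells.

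Immediate early and stress genes, which cell dissociation is known to induce, were lower in neonatal cells, with 12 of 22 past 2-fold in all pairings and none higher. The list summed to 2989 CPM in FACS, 7788 CPM in neonatal beads, 37482 CPM in uninjured and 12834 CPM in 3 DPI endothelial cells. In the other neonatal barcodes it summed to 2804 and 9876 CPM. Fos was at 245, 990.2, 5016 and 1598 CPM, and Hspa1a, a heat shock gene with the near-identical copy Hspa1b, at 4.90, 6.67, 1641 and 153 CPM. The list therefore differed between the neonatal preparations and between the adult libraries as well as between neonatal and adult libraries. Its part in the other differences was not tested. Without Rgs5-positive cells 8 of 22 were past 2-fold lower in all pairings.

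Among single genes, those with the largest smallest ratio in the neonatal direction included H19, Tmem255a, Mfap2, Dlk1, Apln, Nrep, Peg3, Plagl1, Lpar4, Rgs2 and Mest. Tmem255a was at 164, 123, 8.88 and 11.6 CPM, and Rgs2, a regulator of G protein signalling, at 240.1, 228, 39.6 and 54.3 CPM. Tmem255a and Rgs2 were at most 42.1 CPM in the other barcodes, whereas Mfap2, a microfibril protein, Nrep and the lysophosphatidic acid receptor Lpar4 were at 403 to 675, 539.5 to 568 and 191 to 233 CPM in the other neonatal barcodes.

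Those in the adult direction included Lrg1, Tmem252, Hspa1a, Clu, Cd14, AW112010, Fmo2, Hspa1b, Lgals3, Mt2 and Sele. Clu, a secreted chaperone, was at 14.7 and 19.1 CPM in FACS and neonatal beads cells against 1032 CPM (976 to 1089.8) in uninjured and 368 CPM (328 to 410.4) in 3 DPI cells. Tmem252 was at 17.2, 12.4, 424 and 642 CPM. Fmo2, an oxidising enzyme, had 0 UMIs in FACS and 2 in neonatal beads cells, against 391 CPM (357 to 428) in uninjured and 120.2 CPM (98.3 to 146) in 3 DPI cells. Each of these genes was nearly undetected in neonatal endothelial cells at depths of 408127 and 1049296 UMIs and well detected in both adult libraries.

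**Figure D2:**
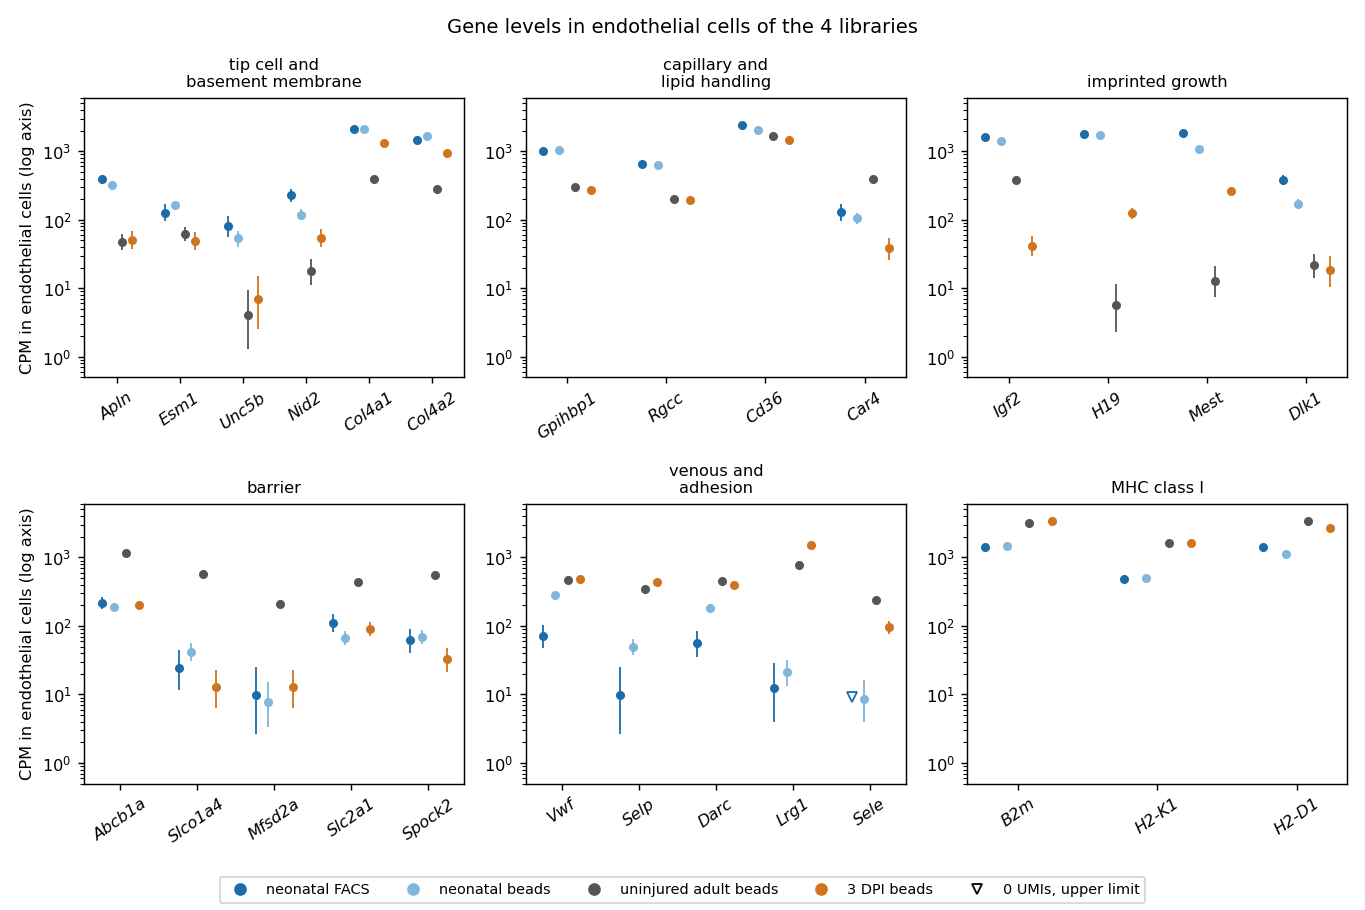
Level of genes of 6 groups in endothelial cells of the 4 libraries, in CPM on a log axis with exact Poisson 95% intervals, with an open triangle at the upper limit where a gene had 0 UMIs. Apln, H19 and Gpihbp1 sit high in both neonatal libraries, Lrg1 and Selp low in both, and Abcb1a and Slco1a4 high in the uninjured library alone.

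Cell cycle genes were detected in both neonatal libraries. Top2a or Mki67, genes of the G2 and M phases, was found in 23 of 133 FACS cells (17.3%, 11.3 to 24.8) and 85 of 423 beads cells (20.1%, 16.4 to 24.2), against 3 of 392 uninjured cells (0.765%, 0.158 to 2.22) and 37 of 190 cells at 3 DPI (19.5%, 14.1 to 25.8). With each cell thinned to 500 UMIs, which left out 4 FACS, 23 neonatal beads, 2 uninjured and 3 cells of the 3 DPI library, the shares were 8.53% (4.33 to 14.7), 9% (6.38 to 12.2), 0 of 390 (at most 0.941%) and 6.95% (3.75 to 11.6). The neonatal and 3 DPI intervals overlapped, and the uninjured interval lay below all of them. At the same depth the share in neonatal FACS was 7.94% of pericyte and smooth muscle cells, 7.04% of Schwann cells and 4.52% of mesenchymal cells, and in neonatal beads it was 5%, 12.6% (10.7 to 14.8) and 2.78% (0.908 to 6.36). Schwann cells also divide in these nerves, so their share is no background for these genes.

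Top2a stood at 225 CPM (182 to 276) in FACS, 186 CPM (161 to 214) in neonatal beads and 178 CPM (151 to 209) in 3 DPI cells, with 0 UMIs in uninjured cells, so the neonatal beads level was at least 76.7-fold higher than that floor. The 28 cell cycle genes summed to 2428 CPM in FACS, 1945 CPM in neonatal beads, 289 CPM in uninjured and 1756 CPM in 3 DPI cells. Between neonatal and uninjured beads cells only 6 of them had a mean of at least 50 CPM. Genes near 0 in uninjured cells reached that mean only through their neonatal level, so the filter largely set the outcome. As a description only, 5 of the 6 were past 2-fold higher, with a median log2 ratio of 3.75. None of 13 compared was past 2-fold in all pairings. Pcna, a replication factor, was within 2-fold in every pairing, at 164, 149, 107 and 134 CPM. Inside the neonatal libraries the cells with Top2a or Mki67 had 108 of 4049 genes (2.67%) at least 2-fold higher and 15 (0.37%) at least 2-fold lower in both, the former led by the mitotic genes Prc1, Nusap1, Birc5, Kif22, Ube2c and Ccnb1. On the lower side, Edn1 was at 82.5 against 274 CPM in FACS and 97.7 against 285 CPM in beads cells, and Mgp, an inhibitor of BMP signalling and calcification, at 18.3 against 50.2 and 41.5 against 375 CPM. Apln was close on both sides of this split, at 367 against 395 and 314 against 319 CPM.

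**Figure D3:**
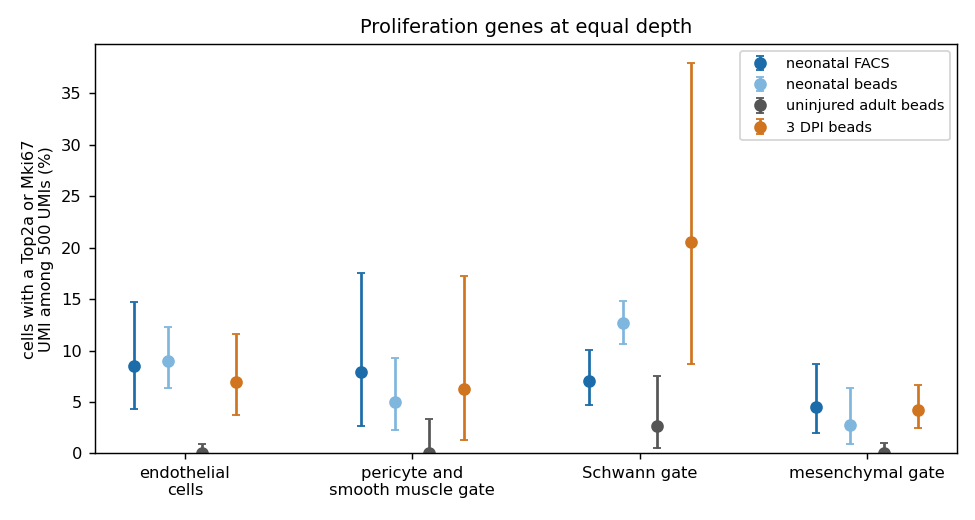
Percent of cells with at least 1 UMI of Top2a or Mki67 after thinning to 500 UMIs, for endothelial cells of the 4 libraries and for other cell gates, with exact Clopper-Pearson 95% intervals. Endothelial cells lie at 8.53% and 9% in the neonatal libraries, at 0 in uninjured and at 6.95% in 3 DPI nerve.

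The neonatal endothelial cells were not uniform, and the cells carrying a UMI of 1 chosen marker were set against those without it in both libraries. The markers and the genes named for these splits were chosen after their values had been seen, and carriers were deeper (a median of 2740 against 1494 UMIs for Apln in beads cells), so levels are given as CPM and the counts as a description. Gpihbp1 was found in 69.2% (60.6 to 76.9) of FACS and 60.0% (55.2 to 64.7) of beads cells, Apln in 33.1% (25.2 to 41.8) and 29.6% (25.2 to 34.1), and the arterial connexins Gja4 or Gja5 in 23.3% (16.4 to 31.4) and 20.3% (16.6 to 24.5). The shares of Schwann cells with Gpihbp1 were 0.482% and 1.13%, and those with Apln 0.723% and 0.436%. At 500 UMIs per cell the endothelial shares of the 3 markers were 38.8%, 12.4% and 9.30% in FACS and 38.0%, 13.0% and 10% in beads cells, so both preparations gave close values.

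Cells with Gja4 or Gja5 differed from the others in some arterial genes that the split did not use. Of 4031 genes 44 (1.09%) were at least 2-fold higher and 38 (0.943%) at least 2-fold lower in both libraries. Sema3g, a semaphorin of arterial endothelium, was at 114 against 6.80 CPM in FACS and 306 against 21.0 CPM in beads cells, though it was also found in 10.1% and 7.93% of Schwann cells. Cxcl12, a chemokine of arteries, was at 2253 against 279 and 1753 against 318 CPM, and Stmn2 at 342 against 85.02 and 776 against 111 CPM. On the lower side were the venous gene Darc, at 8.77 against 74.8 and 37.8 against 222 CPM, and Aplnr, at 52.6 against 333 and 75.5 against 419 CPM. Car4 and Apln were also lower in both libraries. Other arterial genes did not follow in both libraries. Fbln5, of the arterial list, was at 96.4 against 122 CPM in FACS and 612 against 211 CPM in beads cells, Jag1 at 61.4 against 61.2 and 209.7 against 55.5 CPM, and Eln at 8.77 against 102 and 512 against 181 CPM.

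Cells with Apln had 6 of 4002 genes (0.15%) at least 2-fold higher and 32 (0.8%) at least 2-fold lower in both libraries. The lower genes were led by the arterial genes Gja4, at 17.9 against 345 CPM in FACS and 30.1 against 395 CPM in beads cells, and Stmn2, at 17.9 against 253 and 53.3 against 408 CPM. Cxcl12 was at 245 against 1237 and 188 against 964 CPM. Only 3 of 44 FACS (6.82%) and 8 of 125 beads (6.4%) Apln carriers held a UMI of Gja4 or Gja5, against 31.5% and 26.2% of the other cells, even though the carriers were deeper. Most carried Gpihbp1, at 86.4% in FACS and 88.0% in beads against 60.7% and 48.3% of the others. The 6 higher genes were Ctgf, Map4k5, Zcchc8, Parp2, Pfkp and Stmn1, none with a fold above 4.89 and none on the tip cell list. Of that list, Esm1 was at 155 against 108 CPM in FACS and 183 against 149 CPM in beads cells. Col4a1 was at 2415 against 1856 and 2573 against 1775 CPM. Unc5b was lower in the Apln carriers, at 53.8 against 99.7 and 20.8 against 76.1 CPM.

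Cells with Gpihbp1 had 41 of 4071 genes (1.01%) at least 2-fold higher and 58 (1.42%) at least 2-fold lower in both libraries. Apln was at 521 against 106 CPM in FACS and 417 against 72.6 CPM in beads cells, and Btnl9, a butyrophilin-like surface protein, at 279 against 60.7 and 153 against 36.3 CPM. The water and glycerol channel Aqp7 was at 105 against 15.2 and 117 against 33.0 CPM, and Cd36 at 3037 against 993 and 2514 against 960.0 CPM. The higher genes thus included others of lipid and glycerol handling. The lower genes were Cd24a, Eln, Ccdc3, Tmem158, Stmn2 and Cthrc1 at the head. Eln, elastin of larger vessels, was at 7.24 against 219.9 CPM in FACS and 71.0 against 713 CPM in beads cells, the FACS value resting on 29 UMIs in 4 of the cells without Gpihbp1, most of them in 1 cell.

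Cells with Vwf were rarer in FACS, 18 of 133 (13.5%, 8.22 to 20.5), than in beads, 131 of 423 (31.0%, 26.6 to 35.6), and at 500 UMIs per cell the shares were 3.88% (1.27 to 8.81) and 9.75% (7.03 to 13.1). The former intervals did not overlap and the latter did. They had 20 of 4053 genes (0.493%) at least 2-fold higher and 18 (0.444%) at least 2-fold lower in both libraries. The leading gene was the venular receptor Darc, at 177 against 29.9 CPM in FACS, on 13 UMIs in 3 cells, and 380.2 against 37.5 CPM in beads cells. Ackr3, a scavenging chemokine receptor, was at 95.4 against 5.97 and 91.6 against 16.3 CPM, and Btnl9 was lower, at 13.6 against 251 and 36.6 against 178 CPM.

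Cells with Abcb1a, 44 of 133 in FACS (33.1%) and 113 of 423 in beads (26.7%), had 10 of 3995 genes (0.25%) at least 2-fold higher and 15 (0.375%) at least 2-fold lower in both libraries. Other barrier genes were among the higher ones. Slc2a1 was at 244 against 34.5 CPM in FACS and 112 against 39.1 CPM in beads cells, and Spock2 at 136 against 19.2 and 112 against 42.3 CPM. Slco1a4, with few UMIs and not among the 10 counted genes, was at 54.3 against 7.67 and 85.3 against 14.1 CPM. Slc2a1, Spock2 and Slco1a4 were thus higher in cells with Abcb1a in both libraries. These cells were also deeper, with a median of 2682.5 against 2264 UMIs in FACS and 2828 against 1530 in beads. Whether the summed level of the barrier list followed Abcb1a was not tested.

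Lymphatic genes were scarce. Prox1, the transcription factor of lymphatic endothelium, was found in 3 FACS cells and 24 beads cells, and Lyve1 in 2 and 5 cells. In the 24 beads cells Lyve1 was at 332 CPM against 3.14 CPM, on 31 UMIs in 3 cells, Ccl21a at 246 CPM against 0, on 23 UMIs in 4 cells, and Mmrn1, another lymphatic gene, at 149.7 against 7.32 CPM, on 14 UMIs in 4 cells. Each of these lymphatic genes came from 3 or 4 of the 24 carriers, whereas 13 of the carriers held a UMI of Vwf, against 29.6% of the other beads cells.

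**Figure D4:**
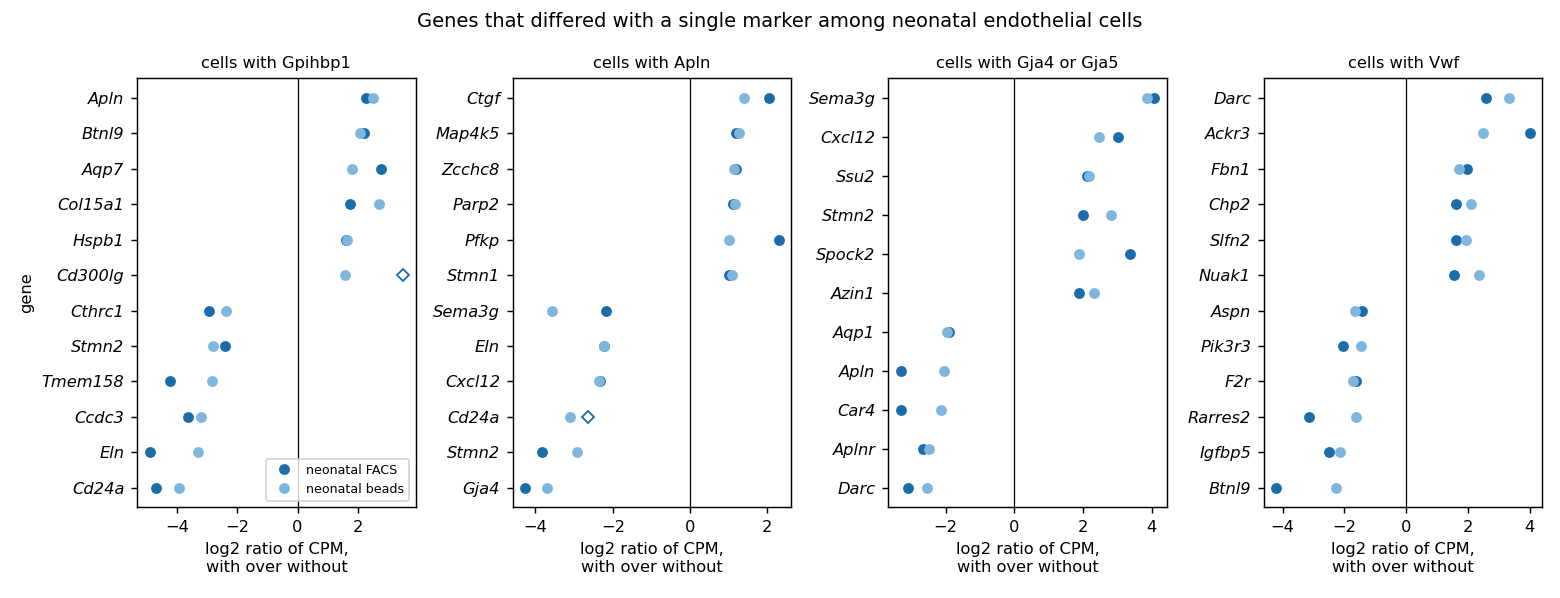
Log2 ratio of CPM in neonatal endothelial cells with a UMI of Gpihbp1, Apln, Gja4 or Gja5, or Vwf over the cells without it, for up to 6 genes in each direction, in the FACS (dark) and the beads library (light), with open diamonds where a group had 0 UMIs and was set to 3. With Gja4 or Gja5, Sema3g and Cxcl12 lie to the right and Darc and Aplnr to the left of 0 in both libraries.

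The preparations were compared last, with 98 of 4008 genes (2.45%) at least 2-fold higher in FACS than in beads endothelial cells and 95 (2.37%) at least 2-fold lower. None of the 6 rule markers and 1 of 29 other pan-endothelial genes, the nitric oxide synthase Nos3, was past 2-fold. Of immediate early and stress genes 12 of 19 were lower in FACS and none higher, with a median log2 ratio of -1.54 against 0.0060 over all genes. Junb was at 137 CPM (104 to 178) in FACS and 725 CPM (675 to 779) in beads cells, Ier3 at 31.9 and 241 CPM, and Zfp36 at 115 and 456 CPM. The lower genes also included Vwf (71.1 and 287 CPM) and Darc (56.4 and 180.1 CPM), 2 of the venous genes.

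Some other differences between the preparations lay in genes of doubtful counting. Of the 98 genes higher in FACS cells 37 were gene models without a name or pseudogenes, and of the 95 lower genes 0 were. Ribosomal protein genes were 1 of the higher and 17 of the lower genes. The shares of these classes among all 4008 genes compared are not given here, so these counts are a description only. Erdr1 had 0 UMIs in FACS and 269 in beads cells, and was at 0.647 and 279.7 CPM in the other barcodes, so this gap was shared by all cells of the libraries. Lrrc58 was at 2891 and 478 CPM, with 1751 and 406 CPM in the other barcodes. In the 3 DPI library, made with beads, Lrrc58 was at 1177 CPM, and unnamed models and pseudogenes took 3.34% of endothelial UMIs in FACS, 1.69% in neonatal beads, 1.65% in uninjured and 3.08% in 3 DPI cells. Reads of near-identical copies could have been divided differently among libraries, which was not tested. Mesenchymal markers (6 of 6 compared) and 3 of the 4 Schwann markers compared, Mbp and Pmp22 among them, were past 2-fold higher in FACS, Pmp22 at 363 and 132 CPM.

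**Figure D5:**
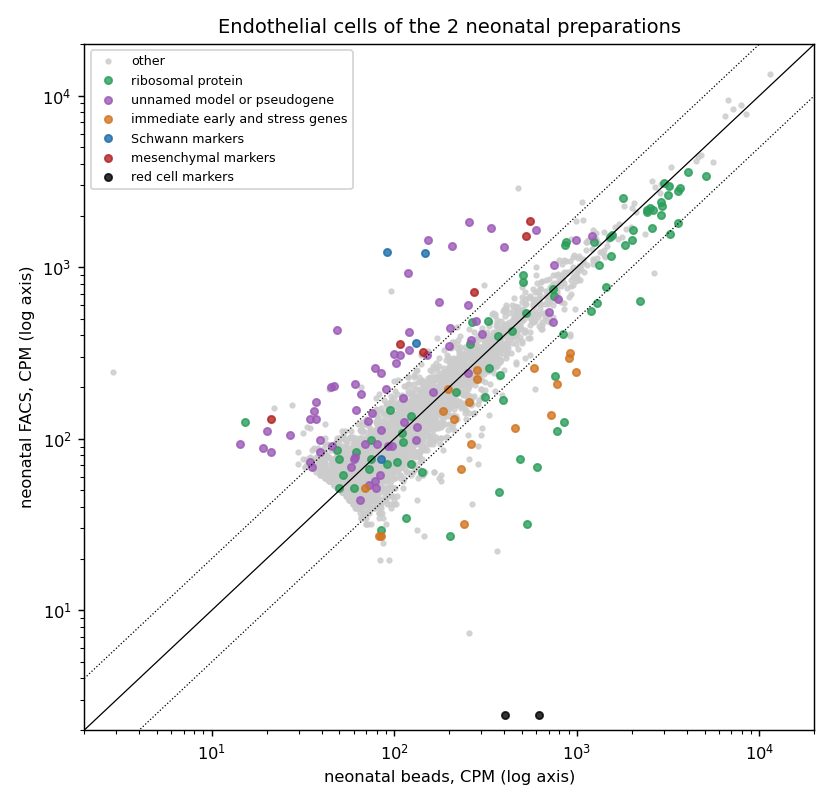
Level of each compared gene in FACS (vertical) against beads endothelial cells (horizontal), in CPM on log axes, with the line of equality, dotted lines at 2-fold and a gene with 0 UMIs set to 3 UMIs. Most genes lie between the dotted lines, 12 of the 19 immediate early and stress genes lie below them, and the mesenchymal markers lie above them.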

How the data were processed

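Drop-seq libraries were analysed from the digital expression matrices the authors deposited, which hold raw UMI counts per gene and cell barcode, made per the study's methods with the Drop-seq alignment pipeline and, per the submitters' processing notes, on mm10 (aligner version and annotation: not given in the sources used here). Deposited barcodes numbered 2500 in neonatal FACS, 6200 in neonatal beads, 2000 in uninjured and 2500 in 3 DPI nerve. Groups followed the labels, with the 2 neonatal preparations, which the study combined, kept apart. Of the barcodes 2306, 5736, 1945 and 2281 passed the filters of at least 200 genes and at most 10% mitochondrial UMIs.

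UMI counts were summed over endothelial cells and expressed as CPM, with exact Poisson 95% intervals, exact Clopper-Pearson 95% intervals for shares and a floor of 3 UMIs where a library had 0. PCR duplicates were removed by the UMIs, and the intervals cover counting error only. Genes were compared at a mean of at least 50 CPM and counted as higher or lower at 2-fold, in all 4 pairings where both neonatal and both adult libraries were compared, with no test since each group was 1 library. The genes named were those of the gene lists, the 12 with the largest smallest ratio in each direction and the 15 with the largest smallest ratio over the other barcodes. Shares were repeated after thinning each cell to 500 or 1000 UMIs. Scrublet, run in scanpy 1.11.5, called 0.0349% to 0.668% of barcodes and so did not separate doublets. No barcode was removed on its score. Of 360 list symbols 358 were in the files, Ackr1 as its older symbol Darc. The code was tested on simulated data and ran in Python 3.11.15 with numpy 2.4.6, scipy 1.17.1, pandas 2.3.3 and matplotlib 3.10.9. Alternatives changed the cell filters, marker minimum, scaling, expression filter and depth. The members and lists were chosen with earlier results of these data known. Some genes that met these rules are not reported here.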

Additional observations from a re-analysis of the deposited data

Results flagged for a closer look

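In 3 genes the neonatal preparations differed from uninjured adult endothelial cells in opposite directions, each by more than 2-fold, and the difference between the preparations was not tested. Rps7, a ribosomal protein gene with many near-identical copies, had a log2 ratio to uninjured cells of -2.75 in FACS and 1.31 in beads cells, at 31.9 CPM in FACS, 532 CPM in neonatal beads, 214 CPM in uninjured and 224 CPM in 3 DPI cells. The mitochondrial transfer RNA gene mt-Tc had ratios of 2.52 in FACS and -3.90 in beads cells, the latter against the 3-UMI floor because the neonatal beads cells held 0 UMIs, at 245 CPM in FACS, 42.8 CPM in uninjured and 49.7 CPM in 3 DPI cells. Another such gene, mt-Tp, had ratios of 1.65 and -1.14, at 152, 21.9, 48.4 and 68.2 CPM in FACS, neonatal beads, uninjured and 3 DPI cells.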

How the results depend on the processing

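No paired analysis was possible because each group was 1 library. Each alternative is set against the values in the report. The main median log2 ratios between neonatal and uninjured beads cells that were not given above follow. They were -0.95 for pericyte and smooth muscle, -0.91 for red cell, 0.29 for Schwann, 0.39 for mesenchymal and -0.44 for Notch genes. The red cell, mesenchymal and Notch medians changed sign under an alternative given below. With a marker minimum of 3 UMIs the endothelial share was 8.26% in neonatal beads and 9.56% in 3 DPI nerve and the median log2 ratio of cell cycle genes between neonatal and uninjured beads cells was 4.37. With a minimum of 6 the shares were 6.35% in neonatal beads, 18.3% in uninjured and 6.88% in 3 DPI nerve, the pericyte median was -1.54 and the FACS over beads log2 ratio of Apod turned to -0.078. At least 500 genes per barcode gave shares of 7.57%, 9.38%, 22.2% and 10.1% in FACS, neonatal beads, uninjured and 3 DPI nerve, a cell cycle median of 4.37 and a red cell median of 0.97. The cell cycle median was also 4.56 with at most 5% mitochondrial UMIs, and 4.49 with totals that left out mitochondrial, ribosomal protein and hemoglobin genes. Without the requirement of 0 Sox10, Pdgfra and Ptprc UMIs the Schwann median was 1.86.

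Alternatives chosen after seeing the data left out Rgs5-positive cells, which gave shares of 6.21% in neonatal beads, 16.7% in uninjured and 6.49% in 3 DPI nerve, a barrier median of -2.49 and a Schwann median of 0.90, or cells with Top2a or Mki67, which gave a pericyte median of -1.83 and turned the FACS over beads log2 ratio of Hist1h2al to -0.022. With the mean over cells of each cell's CPM, 146 genes were lower in FACS than in beads cells, and the medians were 3.10 for cell cycle, 2.62 for imprinted and 0.18 for Notch genes.

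The counts of genes past 2-fold depended on the expression filter. At a mean of at least 20 CPM they were 282 higher and 343 lower in FACS than in beads cells, 572 higher and 614 lower in neonatal than in uninjured beads cells, with a barrier median of -2.65, and 99 higher and 228 lower in all 4 pairings. With no filter beyond 1 UMI they were 3179 and 1159, 2839 and 2503, and 519 and 393, with a mesenchymal median of -0.98. Thinned to 500 UMIs, the shares of endothelial cells with Top2a or Mki67 were 8.53% in FACS, 9% in neonatal beads, 0% in uninjured and 6.95% in 3 DPI nerve, and thinned to 1000 UMIs the 3 DPI share was 12.5%. Of 672 alternative values of named genes, 651 kept their direction and side of 2-fold, 19 kept their direction but no longer passed 2-fold and 2 reversed. In FACS cells 1 UMI was 2.45 CPM. The floor of 3 UMIs, 7.35 CPM there, was used only at 0 UMIs, so genes with 1 or 2 UMIs kept values below it.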
